A study of Mus musculus with 16 samples.

Results

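Carotid arteries taken at day 7 after a wire injury were compared with uninjured carotid arteries, 3 arrays against 3. These 6 arrays were chosen by their titles from the 16 of the series, and all 611 mouse miRNAs with a probe were followed on them. Every mouse was a female ApoE-/- animal on the C57BL/6 background and was fed a western-type diet. By their labels the mice were 6 to 8 weeks old, and those of day 1 were 8 weeks old. The injured group had its carotid artery damaged with a wire and was sampled at day 7, and the control group had no injury. Both groups thus lacked apolipoprotein E, a loss that makes mice prone to atherosclerosis, and no ApoE+/+ or sham-operated artery was analysed here. Per the series' design text, 3 to 4 animals made up each group, and the p-values measure the spread between these samples. The 4 arrays of day 28 entered as a check on the array slide, and the 3 arrays each of day 1 and day 14 helped to estimate the spread.

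A miRNA is a short RNA that is cut from a hairpin precursor and lowers the output of messenger RNAs that pair with its seed, the bases 2 to 8 from its 5′ end. miRNAs that share a seed can pair with the same target sites and are grouped into families, and hairpins that lie close together are often cut from a common long transcript. After injury of an artery, leukocytes enter the wall, and smooth muscle cells of the media lose their contractile state, divide and build a neointima, tissue that grows inside the vessel and narrows it. miR-143 and miR-145 are known for the contractile state of smooth muscle, miR-21 and miR-221 for its growth, and miR-223, miR-142 and miR-155 for cells of the blood and of inflammation.

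The mature sequences of the miRNAs that rose most and of their closest relatives are shown first, with the seed in capitals, because shared seeds and shared hairpins order the results that follow. They are RefSeq sequences of the mouse build GRCm38.p6, and 173 of the 321 tested miRNAs were matched to one by name. The 5p or 3p arm was taken from the current name of each miRNA and not from the probe.
miR-223: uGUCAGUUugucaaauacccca
miR-146a: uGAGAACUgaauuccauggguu
miR-146b: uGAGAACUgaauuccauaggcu
miR-155: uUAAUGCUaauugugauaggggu
miR-142-3p: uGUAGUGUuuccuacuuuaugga
miR-142-5p: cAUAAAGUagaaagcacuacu
miR-21: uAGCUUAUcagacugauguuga
miR-21*: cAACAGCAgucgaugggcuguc
miR-503: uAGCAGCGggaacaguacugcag
miR-322: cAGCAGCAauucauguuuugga
miR-362-5p: aAUCCUUGgaaccuaggugugaau
miR-340-5p: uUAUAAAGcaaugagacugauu
miR-34a: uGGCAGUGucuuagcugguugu
miR-34b-5p: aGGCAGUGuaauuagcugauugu
miR-154*: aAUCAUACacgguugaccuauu
miR-377: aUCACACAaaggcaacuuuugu
Of these, miR-146a and miR-146b share a seed, and so do miR-34a and miR-34b-5p. The hairpin of miR-223 lies on chromosome X (chrX:96242817-96242926, plus strand), that of miR-155 in its host transcript Mir155hg (chr16:84714140-84714204, plus strand), and that of miR-21 inside the span of the gene Vmp1 (chr11:86584067-86584158, minus strand).

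The miRNAs that fell most, and close relatives, are shown in the same way. miR-7a and miR-7b share a seed, as do miR-193 and miR-193b.
miR-129-5p: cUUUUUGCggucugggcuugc
miR-137: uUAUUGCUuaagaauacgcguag
miR-7a: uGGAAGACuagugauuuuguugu
miR-7b: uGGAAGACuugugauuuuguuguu
miR-138: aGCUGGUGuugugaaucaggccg
miR-153: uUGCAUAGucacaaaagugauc
miR-218: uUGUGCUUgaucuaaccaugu
miR-193: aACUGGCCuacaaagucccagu
miR-193b: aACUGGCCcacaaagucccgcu
The other members of the 12 that fell most are miR-124, miR-375, miR-129-3p, miR-598 and miR-145. The mature miR-218 can come from 2 hairpins, inside the spans of Slit2 (chr5:48223942-48224051, plus strand) and Slit3 (chr11:35616816-35616925, plus strand), and miR-137 comes from 1 (chr3:118433857-118433929, plus strand).

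All values below are the processed array signal divided by the 75th percentile of the 395 probes detected on all 16 arrays, on the log2 scale, so that 0 is the level of that percentile and -5.79 is the floor to which dimmer values were set. A miRNA was detected where its brightest probe was well above background. The 75th percentile was 401 to 624 intensity units on the uninjured arrays and 816 to 1214 on the day 7 arrays, with 251 to 292 and 307 to 332 miRNAs detected. The number of arrays limits the precision. The 321 miRNAs that were detected on every array of at least 1 of the 5 groups were tested with limma, and the other 290 were not tested. Of the tested ones, 15 passed this filter only through day 7, of which 4 were called higher, and 1 (miR-330*) only through the uninjured group. The RNA came from whole arteries, so fewer cells of a type and less of a miRNA per cell cannot be told apart. The defining miRNAs of the labelled tissue were present on the uninjured arrays, with miR-143 of smooth muscle at 2.57, 2.58 and 1.75 and miR-126-3p of endothelium at 3.27, 3.34 and 3.37.

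At day 7, 160 of the 321 tested miRNAs (49.8%) differed from uninjured arteries at an adjusted p under 0.05 in limma with Benjamini-Hochberg adjustment. Of these, 88 were higher (27.4% of those tested) and 72 lower (22.4%). The arrays of the groups did not overlap for 197 miRNAs (61.4%), and 153 of the 160 calls were among them. A called difference was at least 1 on the log2 scale for 55 higher and 41 lower miRNAs. The median of all 321 differences was 0.0027. Without scaling it was 0.86, and 122 of 131 called miRNAs were higher and 9 lower, so each direction given here is relative to the 75th percentile of its array.

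The uninjured arrays lay on slide 2 and the day 7 arrays on slide 1, so slide and injury cannot be told apart in these 6 arrays alone. Day 28 arrays lay on both, replicates 1 and 2 on slide 1 and replicates 3 and 4 on slide 2, and slide was estimated from them as a block. With this block 92 miRNAs were called (28.7%), 53 higher and 39 lower. In both fits 89 were called (27.7%), 52 higher (16.2%) and 37 lower (11.5%). The sign was kept with the block by 160 of the 160 calls. Both fits use the same 6 arrays, and the smallest called difference was 0.30, so this is no independent check on slide. The block raised the median standard error from 0.24 to 0.37, and 71 calls ended, for 18 of which the difference fell below 50% of its size without the block. Between the slides within day 28 limma called 0 miRNAs, with 39 at an unadjusted p under 0.05 and a median absolute difference of 0.23. The largest differences among the calls that ended were those of miR-142-5p, miR-9*, miR-133a, miR-378 and miR-335-5p, of which the last differed by 1.80 without the block and by 1.20 with it (adjusted p = 0.00608 and 0.28). Of the miRNAs named below as called in both fits, several lost the call with the block when 1 day 28 array was left out. These were miR-124, miR-154* and miR-188-5p whichever of the 4 was left out, miR-137 without replicate 1, 2 or 4, miR-100 and miR-30d without replicate 2, 3 or 4, miR-221 and miR-500 without replicate 1 or 4, miR-29b* without replicate 1 or 3, and miR-142-3p, miR-19b and miR-126-3p without replicate 3. The scatter of both fits shows each miRNA.

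**Figure D1:**
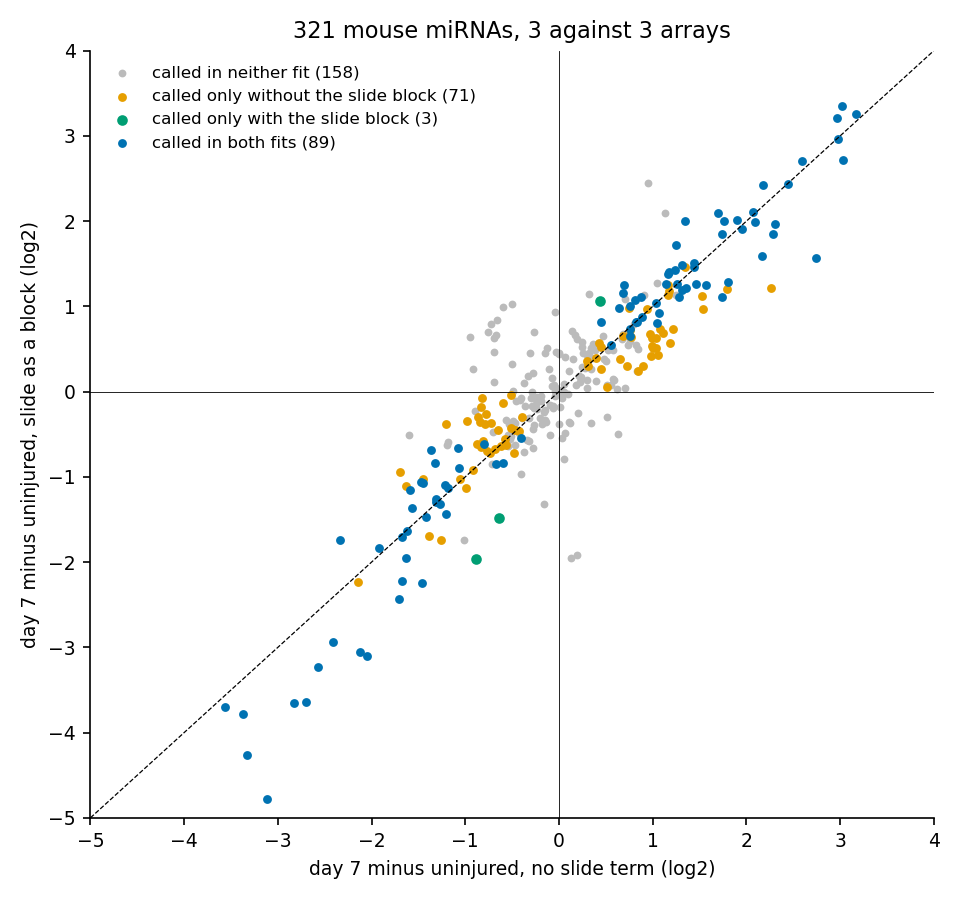
Difference day 7 minus uninjured (log2) of the 321 tested miRNAs without a slide term (horizontal) and with slide as a block (vertical), with the dashed line where both are equal. The 89 miRNAs called in both fits reach from the lower left to the upper right along that line, and the 71 called only without the block lie nearer to 0.

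miRNAs of leukocytes and of inflammation rose. Of the 9 tested members of the leukocyte list, 7 rose and 0 fell, 6 of them in both fits, with a median difference of 2.45 against 0.0027 for all tested miRNAs. Over all tested miRNAs 27.4% were higher and 22.4% lower, and 16.2% and 11.5% in both fits. These shares stand beside every list count below. miR-223, which is abundant in neutrophils and monocytes, stood at 0.47, 0.59 and 0.33 on the uninjured arrays and at 3.88, 3.61 and 3.42 at day 7. Its day 7 arrays lay far above all uninjured ones, a 9.03-fold rise (log2 3.18 ± 0.17 SE, adjusted p = 1.85e-08). miR-146b had -4.82, -5.05 and -4.70 without injury, where 2 of 3 arrays detected it, and -1.99, -1.71 and -1.79 at day 7. miR-146a, which has the same seed and like it is induced by NF-kB, had -3.35, -3.57 and -3.19 against -1.05, -0.84 and -0.87. The groups were apart for both, and the rises were 8.15-fold (log2 3.03 ± 0.18 SE, adjusted p = 3.51e-08) and 5.45-fold (log2 2.45 ± 0.17 SE, adjusted p = 2.08e-07).

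miR-155, a miRNA of activated macrophages and lymphocytes, stood at -4.01, -3.96 and -3.68 in uninjured arteries and at -0.90, -1.05 and -0.79 at day 7. It rose 7.82-fold with no overlap (log2 2.97 ± 0.31 SE, adjusted p = 5.57e-06). Of the miR-142 hairpin, which is expressed in blood cells, miR-142-3p went from -1.88, -1.76 and -2.32 to 0.85, 0.88 and 0.55, a 6.71-fold rise (log2 2.75 ± 0.37 SE, adjusted p = 4.68e-05). Its other arm, miR-142-5p, went from -3.45, -3.43 and -4.21 to -1.56, -1.20 and -1.54, a 4.81-fold rise (log2 2.27 ± 0.37 SE, adjusted p = 0.000242). With slide as a block the arms differed by 1.57 (adjusted p = 0.0153) and 1.22 (adjusted p = 0.0758), so that only the call of miR-142-5p ended. Of the 4 day 28 arrays that enter this block, replicate 2 stood highest for both arms, at 1.52 and -0.57, against 0.26 and -1.79 on replicate 1.

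A smaller rise of 2.40-fold was measured for miR-342-3p, also known from blood cells (log2 1.26 ± 0.16 SE, adjusted p = 2.63e-05). Lymphocyte miR-150, which entered the test only through its detection at day 7, lay at the floor on the 3 uninjured arrays. At day 7 it stood at -5.69, -5.79 and -5.78, on or next to the floor, so its adjusted p of 0.957 shows nothing about its level. miR-511 differed by -0.15 (adjusted p = 0.799), and both had overlapping arrays. miR-147 did not pass the filter. The summed scaled signal of the 10 leukocyte miRNAs was 3.11 to 3.26 on the uninjured arrays and 16.5 to 21.2 on the day 7 arrays, and 26.9 to 29.7 at day 1 and 13.1 to 17.4 at day 28. At day 7 miR-223 made up most of this linear sum. The mean log2 signal of the 10 was -3.37 to -3.35 on the uninjured arrays and -1.61 to -1.54 at day 7. The part of leukocytes in the other differences was not tested. The bars of these sums show every array.

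**Figure D2:**
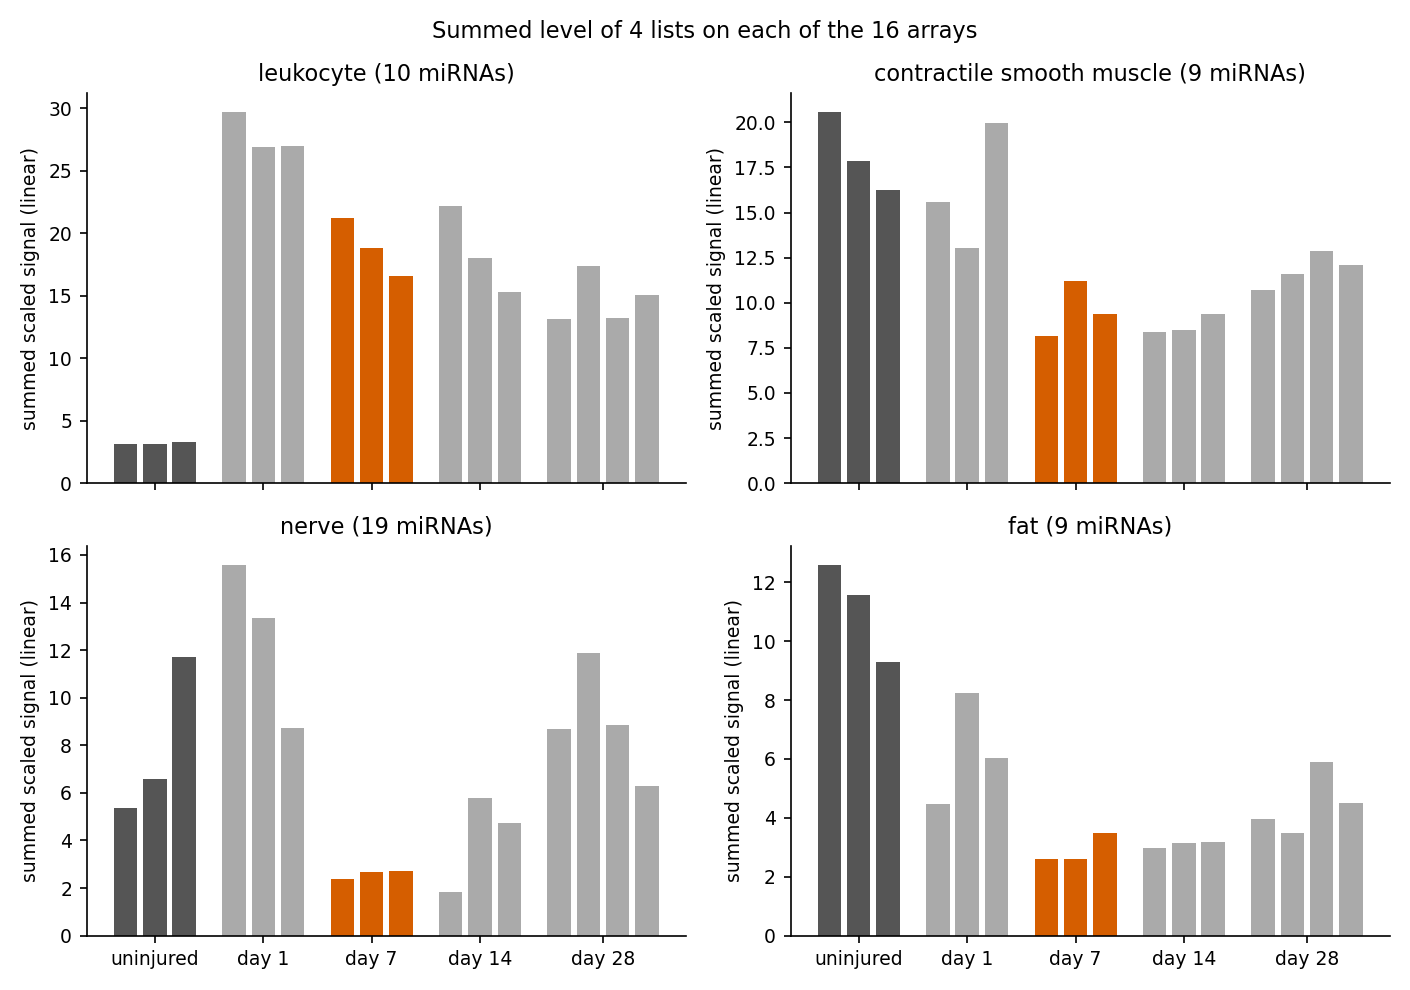
Summed scaled signal (linear scale, bars from 0) of the measured members of 4 lists on each of the 16 arrays, by group. The leukocyte sum was at most 3.26 on the uninjured arrays and at least 16.5 at day 7, while the nerve, fat and contractile smooth muscle sums of the day 7 arrays lay below all uninjured ones. Bright members weigh most in linear sums, such as miR-193b in the fat sum and, at day 7, miR-223 in the leukocyte sum.

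miRNAs linked to growth of injured smooth muscle also rose. Of the 10 tested members of that list, which shares miR-146a and miR-146b with the leukocyte list, 7 rose and 0 fell, 6 in both fits, with a median of 1.62. Over all tested miRNAs 27.4% rose, and 16.2% in both fits. miR-21, which promotes growth and survival of smooth muscle cells, stood at 3.52, 3.47 and 3.07 without injury and at 6.17, 6.50 and 6.33 at day 7. It was 7.90-fold higher with the groups far apart (log2 2.98 ± 0.22 SE, adjusted p = 2.48e-07). Its other arm, miR-21*, was at the floor and undetected on all 3 uninjured arrays and at -3.76, -3.74 and -3.99 at day 7, at least 2.78-fold higher (adjusted p = 1.36e-05).

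miR-221, a repressor of cell cycle inhibitors, rose 3.49-fold from -3.04, -2.98 and -3.52 to -1.39, -1.30 and -1.44 (log2 1.81 ± 0.24 SE, adjusted p = 4.18e-05). miR-222, its seed relative and neighbour, was at the floor on the uninjured arrays and at -5.33, -4.87 and -4.96 at day 7, at least 1.19-fold higher (adjusted p = 0.0119). That call ended with the block (log2 0.31, adjusted p = 0.561), and with normexp background correction the difference was -0.0030. miR-132, which is induced by CREB, rose 2.72-fold (log2 1.44 ± 0.16 SE, adjusted p = 1.07e-05), while miR-212 of the same cluster differed by 0.21 (adjusted p = 0.419). miR-31 and miR-31* overlapped between the groups, with differences of 0.34 and 0.23 (adjusted p = 0.301 and 0.531).

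Neighbouring hairpins on chromosome X rose together. In the miR-322 to miR-542 cluster 5 of 6 tested members rose and 0 fell, 4 in both fits, with a median of 0.95. Of these, miR-450a-5p and miR-450b-3p entered the test only because the day 7 arrays detected them and support no direction, and of the other 4 members miR-503, miR-322 and miR-542-3p rose. miR-503, which targets cyclins, was detected on 1 of 3 uninjured arrays (-5.77, -5.59 and -5.42) and stood at -2.63, -2.33 and -2.75 at day 7. The groups were wholly apart and the rise was 8.12-fold (log2 3.02 ± 0.16 SE, adjusted p = 1.85e-08), a size that rests partly on undetected values. Its neighbour miR-322 rose 2.55-fold from 0.20, 0.27 and 0.46 to 1.63, 1.65 and 1.69 (log2 1.35 ± 0.24 SE, adjusted p = 0.000374), and both lie in the span of C430049B03Rik. miR-542-3p was undetected on all uninjured arrays and stood at -4.49, -4.29 and -4.25 at day 7, at least 1.95-fold higher (adjusted p = 1.21e-06). miR-450b-3p and miR-450a-5p were also at the floor without injury and called higher (adjusted p = 0.000112 and 0.00507), the second without the block only. miR-542-5p, the other arm of miR-542-3p, differed by 0.44 (adjusted p = 0.196) and was called with the block (log2 1.07, adjusted p = 0.0419).

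In the miR-188 to miR-532 cluster, whose hairpins lie in the span of Clcn5 on chromosome X, 6 of 6 tested members rose in both fits, with a median of 1.22. miR-362-5p was detected on 1 of 3 uninjured arrays (-5.74, -5.62 and -5.21) and had -3.02, -2.77 and -3.01 at day 7, a 6.03-fold rise without overlap (log2 2.59 ± 0.16 SE, adjusted p = 4.85e-08). The size of that rise rests partly on undetected values. miR-362-3p, its other arm, rose 2.43-fold, miR-532-5p 2.24-fold and miR-500 1.56-fold (adjusted p = 6.47e-06, 2.04e-05 and 0.0111). miR-188-5p stood at -5.79, -5.75 and -3.80 without injury and at -2.99, -2.85 and -3.28 at day 7, so that uninjured replicate 3, the only uninjured array that detected it, was nearer to day 7 than to its own group (adjusted p = 0.00136). miR-532-3p, detected on 1 of 3 uninjured arrays, rose as well (adjusted p = 0.000903).

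The miR-34 family, known as targets of p53 and for arrest and ageing of cells, had 3 of 5 tested members higher, 3 in both fits. The shares of all tested miRNAs were 27.4% and 16.2%. miR-34a rose 4.51-fold from 0.38, 0.37 and 0.77 to 2.72, 2.78 and 2.54, with the groups apart (log2 2.17 ± 0.20 SE, adjusted p = 2.39e-06). miR-34b-5p rose 2.37-fold and miR-34c 3.73-fold (adjusted p = 0.00127 and 1.92e-05). The other arms of these hairpins, miR-34b-3p and miR-34c*, differed by -0.29 and 0.017 (adjusted p = 0.624 and 0.929), the second close to the floor.

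miR-340-5p, which lies in the span of Rnf130 (chr11:50069702-50069799, plus strand), was at -5.79, -5.79 and -5.49 without injury, detected on 1 of 3 arrays, and at -3.51, -3.18 and -3.46 at day 7. It was at least 3.67-fold higher (adjusted p = 8.74e-07), and its other arm miR-340-3p rose 2.57-fold (adjusted p = 2.39e-06), both in both fits.

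In the imprinted Dlk1-Dio3 region on chromosome 12, a large miRNA locus expressed from the maternal chromosome, 23 of 47 tested members rose and 2 fell, but 8 and 0 in both fits, with a median of 0.56. The share of 8 of 47 lay near the 16.2% of all tested miRNAs that were higher in both fits, and miR-541 and miR-665 among the 23 entered the test only through day 7. miR-377 rose 4.49-fold from -3.31, -3.39 and -2.83 to -1.26, -0.86 and -0.90 (log2 2.17 ± 0.25 SE, adjusted p = 1.14e-05). miR-154* rose 4.88-fold from -5.31, -5.33 and -4.06, where 1 of 3 arrays detected it, to -2.67, -2.55 and -2.62 (log2 2.29 ± 0.39 SE, adjusted p = 0.00032). Both sets of arrays were apart, and so were those of miR-299*, miR-299 and miR-379, which rose 2.96-fold, 3.24-fold and 3.35-fold. The 2 that fell, named after their values were seen, were miR-323-3p and miR-370 (log2 -1.26 and -0.99), and both calls ended with the block. Uninjured replicate 3 was the highest uninjured array for miR-377, miR-154*, miR-323-3p and miR-370, and without it 27 members of the locus rose and 0 fell. Without uninjured replicate 1, uninjured replicate 2 or day 7 replicate 2, 15 rose in each case, with medians of 0.37, 0.50 and 0.50, and leaving out any day 7 replicate left 0 that fell.

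**Figure D3:**
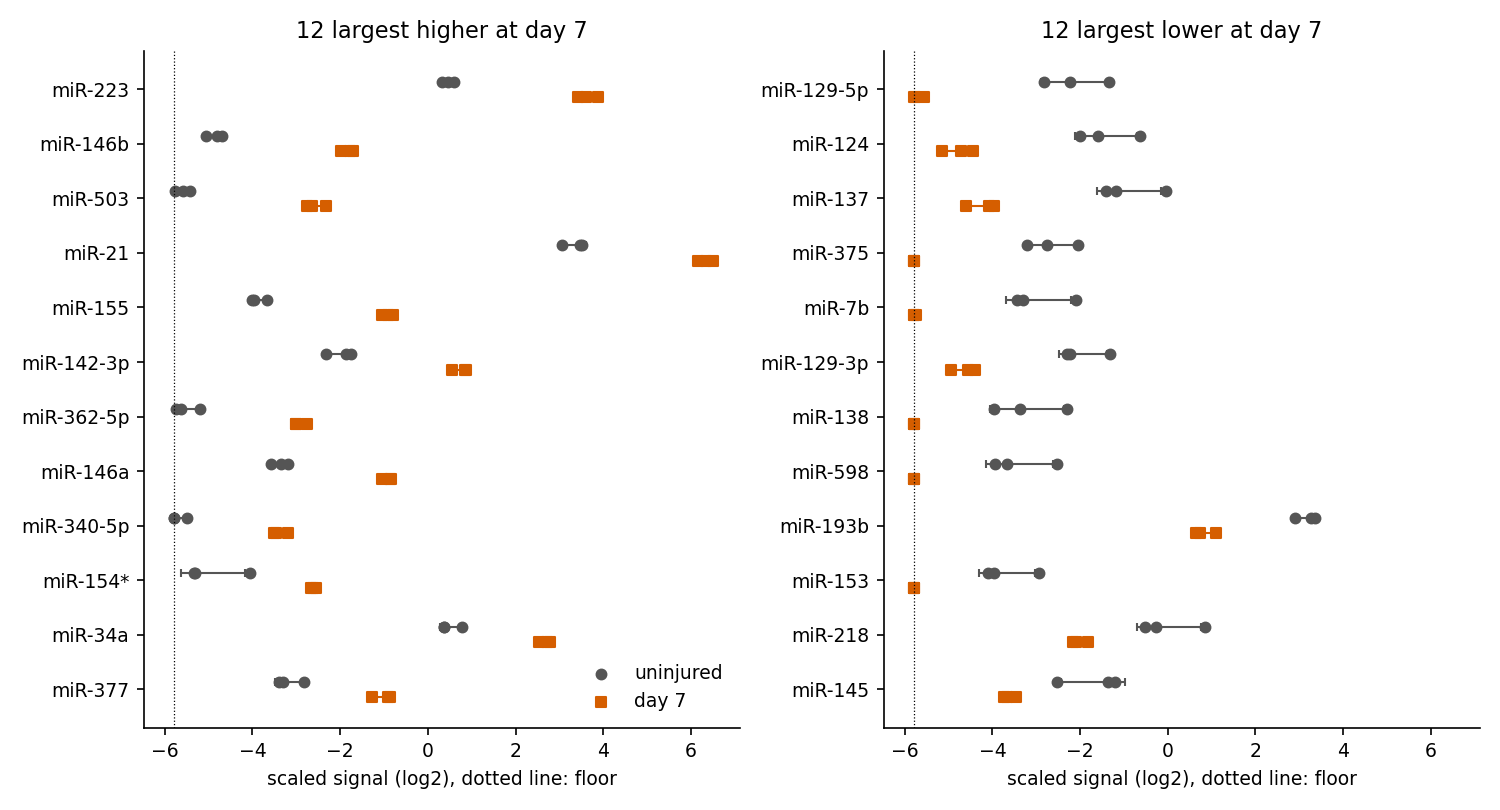
Scaled signal (log2) on each uninjured and each day 7 array of the 12 miRNAs with the largest rise and the 12 with the largest fall among those called in both fits with the arrays apart, with bars for mean ± SD of 3 arrays and a dotted line at the floor of -5.79. By this choice the uninjured and day 7 points do not overlap, and all 3 day 7 values of miR-375, miR-138, miR-598 and miR-153 lie on the floor.

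miRNAs of nerve tissue made up most of the largest falls. Of the 16 tested members of the nerve list, 12 fell and 1 rose, 10 and 0 in both fits, with a median of -2.13. Without scaling 7 fell and 1 rose, with a median of -1.43. miR-124, the most abundant miRNA of neurons, stood at -2.00, -1.59 and -0.63 in uninjured arteries and at -4.73, -4.45 and -5.15 at day 7, 10.3-fold lower (log2 -3.37 ± 0.75 SE, adjusted p = 0.00209). miR-137, which acts in neuronal differentiation, stood at -1.41, -1.18 and -0.051 against -4.08, -3.96 and -4.60, 10.1-fold lower (log2 -3.33 ± 0.82 SE, adjusted p = 0.00388). The groups were apart for both, and uninjured replicate 3 was the highest array.

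Both arms of miR-129 fell. miR-129-5p had -2.83, -2.24 and -1.33 without injury and -5.55, -5.75 and -5.79 at day 7, at least 11.8-fold lower with an adjusted p of 0.000123. miR-129-3p had -2.22, -2.29 and -1.31 against -4.56, -4.41 and -4.95, 6.49-fold lower (log2 -2.70 ± 0.59 SE, adjusted p = 0.00185). The day 7 arrays were near or on the floor for the 5p arm, and both arms were apart. miR-7b had -3.45, -3.30 and -2.10 against -5.75, -5.79 and -5.79, at least 7.09-fold lower (adjusted p = 0.000372), while its seed relative miR-7a differed by -1.02 (adjusted p = 0.0947). miR-138, found at synapses, had -3.96, -3.36 and -2.31 against the floor on all 3 arrays, at least 5.96-fold lower (adjusted p = 0.000794). Both lay on or next to the floor at day 7, whereas miR-218, known from motor neurons, stayed well above it, with -0.51, -0.26 and 0.85 against -1.82, -2.09 and -2.15 (log2 -2.05 ± 0.53 SE, adjusted p = 0.00533).

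miR-149 fell 3.09-fold (adjusted p = 0.000306). miR-9* fell 4.43-fold without the block (adjusted p = 0.00258), and its call ended with it (log2 -2.23, adjusted p = 0.0591). The member that rose, miR-219, known from myelin-forming glia, differed by 0.84 (adjusted p = 0.00127) and by 0.24 with the block (adjusted p = 0.349). miR-375, a list member best known from endocrine and epithelial cells, was detected on 3 of 3 uninjured arrays (-2.06, -2.75 and -3.22) and on 0 of 3 at day 7, at least 8.64-fold lower with an adjusted p of 0.000458.

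The sum of the 19 nerve miRNAs was 5.36 to 11.7 on the uninjured arrays and 2.38 to 2.73 on the day 7 arrays. Of these miRNAs 16 were detected on each uninjured array and 12 to 15 on the day 7 arrays. Day 1 arrays had a sum of 8.73 to 15.6, day 14 arrays 1.85 to 5.77, and day 28 arrays 6.31 to 11.9. How much nerve tissue each artery carried was not measured, and its part in these values was not tested.

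The other miRNAs detected on all uninjured and on no day 7 array were miR-153, miR-551b and miR-330*, which were at least 4.34-fold, 3.27-fold and 2.32-fold lower. miR-598 stood at -3.95, -3.67 and -2.52 without injury and at the floor on all 3 day 7 arrays, at least 5.30-fold lower (adjusted p = 0.000274). In the other direction 26 miRNAs were detected on 3 of 3 day 7 arrays and 0 of 3 uninjured arrays. Of these, miR-21*, miR-222, miR-450a-5p, miR-450b-3p, miR-542-3p, miR-680, miR-877, miR-665, miR-1906 and miR-467c were called higher. Over all 321 tested miRNAs 27.4% were called higher. The 26, like the miRNAs detected only without injury, were picked by detection in the compared groups, which favours their direction in advance. How many of the 26 were called higher therefore shows nothing about direction. Among those called, miR-450a-5p, miR-450b-3p and miR-665 also entered the test only through day 7 and support no direction. The dimmest detected miRNA lay at -6.64, -5.97 and -6.32 on the day 7 arrays and at -5.07, -5.22 and -5.62 on the uninjured ones, so the brighter day 7 arrays reached lower scaled signals.

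miRNAs of contractile smooth muscle fell. Of 8 tested members 5 fell and 1 rose, 3 and 1 in both fits, with a median of -1.09, which without scaling was -0.12 with 0 called lower and 1 higher. The shares of all tested miRNAs that fell were 22.4%, and 11.5% in both fits. miR-143, which together with miR-145 keeps smooth muscle cells contractile, stood at 2.57, 2.58 and 1.75 without injury and at 0.56, 0.78 and 0.55 at day 7. miR-145 from the same cluster had -1.21, -1.37 and -2.53 against -3.74, -3.46 and -3.66. Both sets were apart, uninjured replicate 3 was the lowest uninjured array for both, and they were 3.18-fold and 3.78-fold lower (log2 -1.67 ± 0.23 SE, adjusted p = 4.66e-05, and -1.92 ± 0.27 SE, adjusted p = 7.18e-05).

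miR-204 fell from -1.83, -1.78 and -1.24 to -3.70, -3.23 and -2.94 with no overlap (log2 -1.67 ± 0.31 SE, adjusted p = 0.000538). miR-133a, shared with striated muscle, was 3.23-fold lower (adjusted p = 0.00613), a call that ended with the block (log2 -0.94, adjusted p = 0.353). miR-26a was 1.42-fold lower (adjusted p = 0.025) with overlapping arrays, lost its call with the block, was 0.46 higher without scaling, and lost its call also without day 7 replicate 1 or uninjured replicate 1 or 2. miR-10a, from a Hox gene cluster, rose 1.62-fold (adjusted p = 0.00591). The sum over the 9 measured members was 16.2 to 20.6 without injury and 8.18 to 11.2 at day 7.

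Markers of other cells that an artery can carry moved less evenly. Of 6 tested fat-associated miRNAs 4 fell and 0 rose, 1 in both fits, with a median of -1.11 that was -0.15 without scaling, where 1 fell. Over all tested miRNAs 22.4% fell, and 11.5% in both fits. miR-193b, which acts in brown fat formation, was 5.06-fold lower, from 3.35, 3.26 and 2.90 to 0.74, 0.65 and 1.10 with the arrays apart (log2 -2.34 ± 0.26 SE, adjusted p = 9.08e-06). Its seed relative miR-193 was 1.71-fold lower (adjusted p = 0.0111), but 0.19 higher without scaling and not called without day 7 replicate 1, and both arms of another fat-associated hairpin were lower, miR-378 3.11-fold and miR-378* 2.74-fold. These 3 calls ended with the block (adjusted p = 0.195, 0.198 and 0.15). The fat sum was 9.31 to 12.6 without injury and 2.60 to 3.49 at day 7. miR-193b made up most of this linear sum. The mean log2 signal of the 9 measured fat miRNAs was -2.69 to -2.55 without injury and -3.57 to -3.26 at day 7.

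Of 6 tested striated muscle miRNAs 1 was called, miR-133a, a share near the 22.4% of all tested miRNAs that were lower. Without day 1 replicate 1 or 3, 3 were called lower, and 2 without day 7 replicate 1 or 2, day 28 replicate 2 or uninjured replicate 3. The median of the 6 was -1.04, and -0.41 with the block. The striated muscle sum was 9.21 to 12.8 without injury and 4.42 to 7.69 at day 7. The mean log2 signal of this list overlapped, with -2.27 to -1.95 against -2.82 to -2.22. The erythroid miR-451, miR-144 and miR-486 had 0 calls by limma (adjusted p = 0.304, 0.521 and 0.0542), and 2 of them were called lower without uninjured replicate 3, and 1 without day 1 replicate 1 or 3 or day 7 replicate 1. At an unadjusted p under 0.05, 1 of the 3 was lower. Their sum was 16.3 to 42.9 without injury and 15.1 to 27.7 at day 7. Of the 3 tested epithelial miRNAs limma called 0, with 0 at an unadjusted p under 0.05. Their list summed to 0.137 to 0.180 and 0.135 to 0.165, close to the floor. Endothelial miR-126-3p went from 3.27, 3.34 and 3.37 to 3.62, 3.78 and 3.94, 1.37-fold higher in both fits (log2 0.45 ± 0.16 SE, adjusted p = 0.0305), a call that ended with scaling by the 75th percentile of all mouse probes (log2 0.30) or by the median (log2 0.29), and without day 7 replicate 2 or 3 or uninjured replicate 1 or 2 (log2 0.37 to 0.46). The part of fat, muscle and blood in the other differences was not tested. The plot of all lists shows their members.

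**Figure D4:**
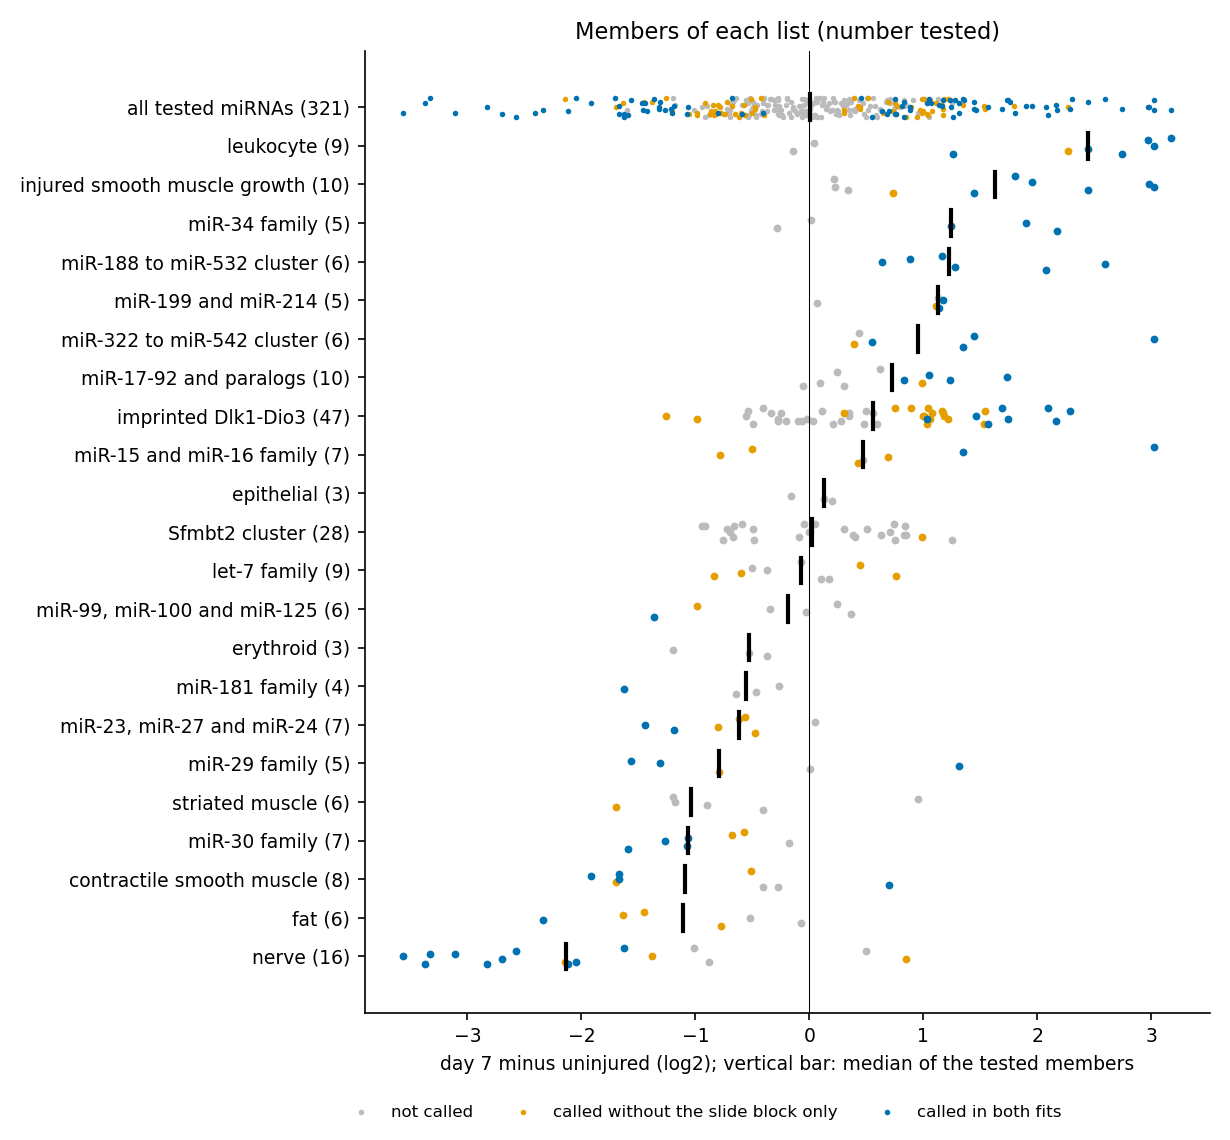
Difference day 7 minus uninjured (log2) of every tested member of each list with at least 3 tested members, with the median as a black bar and all 321 miRNAs as 1 row. The medians run from -2.13 (nerve) to 2.45 (leukocyte) around 0.0027 for all, and without scaling those of the erythroid, miR-181, miR-23 to miR-24, miR-29, miR-99 to miR-125 and let-7 lists turn from negative to positive.

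Members of a seed family did not always move together. In the miR-30 family 6 of 7 tested members fell and 0 rose, 4 in both fits, with a median of -1.07 that was -0.10 without scaling, where limma called 0. These members of the family share their seed.
miR-30a: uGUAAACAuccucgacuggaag
miR-30c: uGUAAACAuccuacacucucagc
miR-30e: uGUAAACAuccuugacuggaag
miR-30a went from 3.93, 3.79 and 3.43 to 2.01, 2.03 and 2.34, 3.01-fold lower (adjusted p = 1.01e-05), miR-30c fell 2.40-fold and miR-30d 2.09-fold, all in both fits. miR-30e was 1.60-fold lower without the block only, and 0.28 higher without scaling. miR-30b overlapped between the groups with a difference of -0.18 (adjusted p = 0.408).

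The miR-29 family, which represses collagens and other matrix genes, was split.
miR-29a: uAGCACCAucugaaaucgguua
miR-29b: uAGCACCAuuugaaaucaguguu
miR-29c: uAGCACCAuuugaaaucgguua
miR-29c fell 2.47-fold, from 3.46, 3.31 and 3.01 to 2.00, 1.87 and 1.98 (adjusted p = 6.34e-06), and its other arm miR-29c* fell 2.96-fold (adjusted p = 1.46e-06), both in both fits. miR-29a was 1.73-fold lower (adjusted p = 0.000501), which ended with the block (log2 -0.38), and 0.17 higher without scaling. miR-29b, with the same seed, had 2.86, 2.69 and 2.40 against 2.48, 2.83 and 2.65 and overlapped (adjusted p = 0.998). Its other arm miR-29b*, detected on 1 of 3 uninjured arrays, rose 2.49-fold in both fits (adjusted p = 9.14e-05).

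Of the miR-23, miR-27 and miR-24 clusters 6 of 7 tested members fell and 0 rose, 2 in both fits, with a median of -0.62 that was 0.35 without scaling, where 0 fell. These 2 were miR-24-1*, which fell 2.72-fold (adjusted p = 9.05e-06), and miR-23b, which fell 2.27-fold from 3.69, 3.47 and 3.09 to 2.21, 2.22 and 2.27 (adjusted p = 7.18e-05). Among the 4 members of the miR-181 family, whose median without scaling was 0.41, miR-181c alone was called, 3.08-fold lower in both fits (adjusted p = 2.39e-06), and 2 or 3 members were called lower without day 28 replicate 1 or 2. That single call lay near the 22.4% of all tested miRNAs that were lower. miR-100, transcribed with a let-7 gene, fell 2.57-fold in both fits from 2.39, 2.21 and 2.47 to 0.97, 0.86 and 1.15 (adjusted p = 9.14e-05), and miR-99a 1.98-fold without the block only (adjusted p = 0.000903, and 0.272 with it).

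Members of other families rose. For comparison, 27.4% of all tested miRNAs were higher and 22.4% lower, and 16.2% and 11.5% in both fits. Without scaling 122 miRNAs were called higher and 9 lower. Of 10 tested miRNAs of miR-17-92 and its paralogous clusters, which promote proliferation, 5 rose and 0 fell, 4 in both fits, with a median of 0.72, and 8 rose without scaling. miR-19a rose 3.33-fold with the arrays apart (adjusted p = 2.32e-05), miR-19b 2.07-fold and miR-18a 2.35-fold, all in both fits. Of the miR-199 and miR-214 group, which marks mesenchymal cells, 3 of 5 rose and 0 fell (5 and 0 without scaling). miR-199a-3p went from 3.06, 2.84 and 2.83 to 4.01, 3.96 and 4.17 (2.20-fold, adjusted p = 1.14e-05), and miR-214 from 0.76, 0.60 and -0.052 to 1.64, 1.63 and 1.57 (2.26-fold, adjusted p = 0.000243), both in both fits and with the arrays apart. The miR-15 and miR-16 family, listed with miR-322 and miR-503, had 4 members higher and 2 lower, 2 and 0 in both fits, and 5 and 0 without scaling. The 2 higher in both fits were miR-322 and miR-503 of the chromosome X cluster above, while the calls of miR-15a and miR-16 ended with the block. miR-195 and miR-497, which come from a common cluster and share their seed with miR-322, were 1.72-fold and 1.42-fold lower (but 0.18 and 0.46 higher without scaling), and both calls ended with the block, whereas miR-322 rose. Without day 7 replicate 1 or 2 or uninjured replicate 1 or 2, miR-497 lost its call, and another detected probe of it differed by 0.12.

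Among the 9 members of the let-7 family, which restrain growth, 2 rose (let-7f and miR-98) and 2 fell (let-7b and let-7c, which were 0.13 and 0.36 higher without scaling), and with the block their adjusted p were 0.0898 to 0.732. These counts lay near the shares of all tested miRNAs (27.4% higher and 22.4% lower). Without day 28 replicate 1, 4 members of the let-7 family fell. Of the 5 tested miRNAs with the narrowest intervals near 0, let-7a and miR-324-5p were measured well above the floor. let-7a stood at 4.38, 4.36 and 4.44 without injury and 4.50, 4.41 and 4.58 at day 7 (log2 0.10, 95% interval -0.17 to 0.38). miR-324-5p differed by -0.24 (95% interval -0.47 to -0.0072). The others, miR-674, let-7i* and miR-34c*, were at the floor on at least 1 array of each group and undetected on every uninjured array, so their narrow intervals come from values set to the floor and show nothing about their level. The hypoxia-induced miR-210 was 1.80-fold lower (adjusted p = 0.00636), which ended with the block (adjusted p = 0.488), and 0.12 higher without scaling. Of the 28 tested members of the Sfmbt2 cluster, repeated hairpins in an intron of that gene, 1 was called, miR-467c (adjusted p = 0.0445), which was lost with the block or when any of 10 of the 16 arrays was left out.

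The arms of a hairpin give 2 measurements of its output. Of 58 hairpins with both arms tested, 41 had the same sign for both, with a Pearson r of 0.68 and a Spearman rho of 0.58 across these pairs, whose arms were read on the same arrays. Both arms were called in 17, of which 16 had the same direction. The exception was miR-455 (log2 -0.74) with miR-455* (log2 0.65), and both calls ended with the block. In the hairpin of miR-154 the named arm differed by -0.25 (adjusted p = 0.392) while miR-154* rose by 2.29. For 80 called miRNAs another detected probe was at hand, and 80 of 81 such probes had the sign of the brightest one. The exception was miR-497, at 0.12 against -0.51. Sizes could differ, with other probes at -0.056 for miR-29a (brightest -0.79), -0.065 for let-7c (-0.60) and -0.22 for miR-99a (-0.99). For miR-21 and miR-34a the other probe differed more (4.20 against 2.98, and 3.17 against 2.17).

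With slide as a block, each difference is the sum of a step from day 28 to day 7 on slide 1 and a step from uninjured to day 28 on slide 2. Within slide 1, 81 miRNAs differed between day 7 and day 28 (25.2%), 34 higher (10.6%) and 47 lower (14.6%) at day 7. Within slide 2, 55 differed between day 28 and uninjured (17.1%), 43 higher (13.4%) and 12 lower (3.74%) at day 28. Scaling by the median changed these splits to 35 and 24, and to 22 and 24. Each step rests on 2 day 28 arrays, and without day 28 replicate 2 the first count was 39, and without replicate 3 or 4 the other was 35 or 33.

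For miR-21, miR-146a, miR-146b, miR-155, miR-142-3p and miR-34a the step on slide 2 was 1.70 to 3.12 and called for each, and the step on slide 1 was -0.40 to 0.31 (adjusted p 0.142 to 0.95). For miR-503 the step on slide 2 was 1.58 (adjusted p = 2.83e-05), and day 7 stood 1.77 above day 28 on slide 1 (adjusted p = 4.86e-05). miR-377 and miR-154* had their difference in the step on slide 1 (1.68 and 1.80, adjusted p = 0.000892 and 0.0123), with -0.089 and 0.041 on slide 2. Whether the time course of the first 6 differs from that of the last 2 was not tested.

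Among the falls, miR-124, miR-137 and miR-7b were lower at day 7 than at day 28 on slide 1 (-2.70, -2.85 and -2.30, adjusted p = 0.0398, 0.0398 and 0.00904), and their steps on slide 2 of -1.42 to -1.09 did not pass the threshold (adjusted p 0.104 to 0.426). miR-145 and miR-193b had theirs on slide 2 (-1.43 and -1.24, adjusted p = 0.00744 and 0.00483) and differed by -0.41 and -0.50 on slide 1 (adjusted p = 0.404 and 0.178). miR-375 was lower by both steps (-1.67 and -3.11), and its day 28 arrays stood at -5.03, -3.20, -5.79 and -5.79, with replicate 2 the highest. The plot of both steps shows these patterns.

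**Figure D5:**
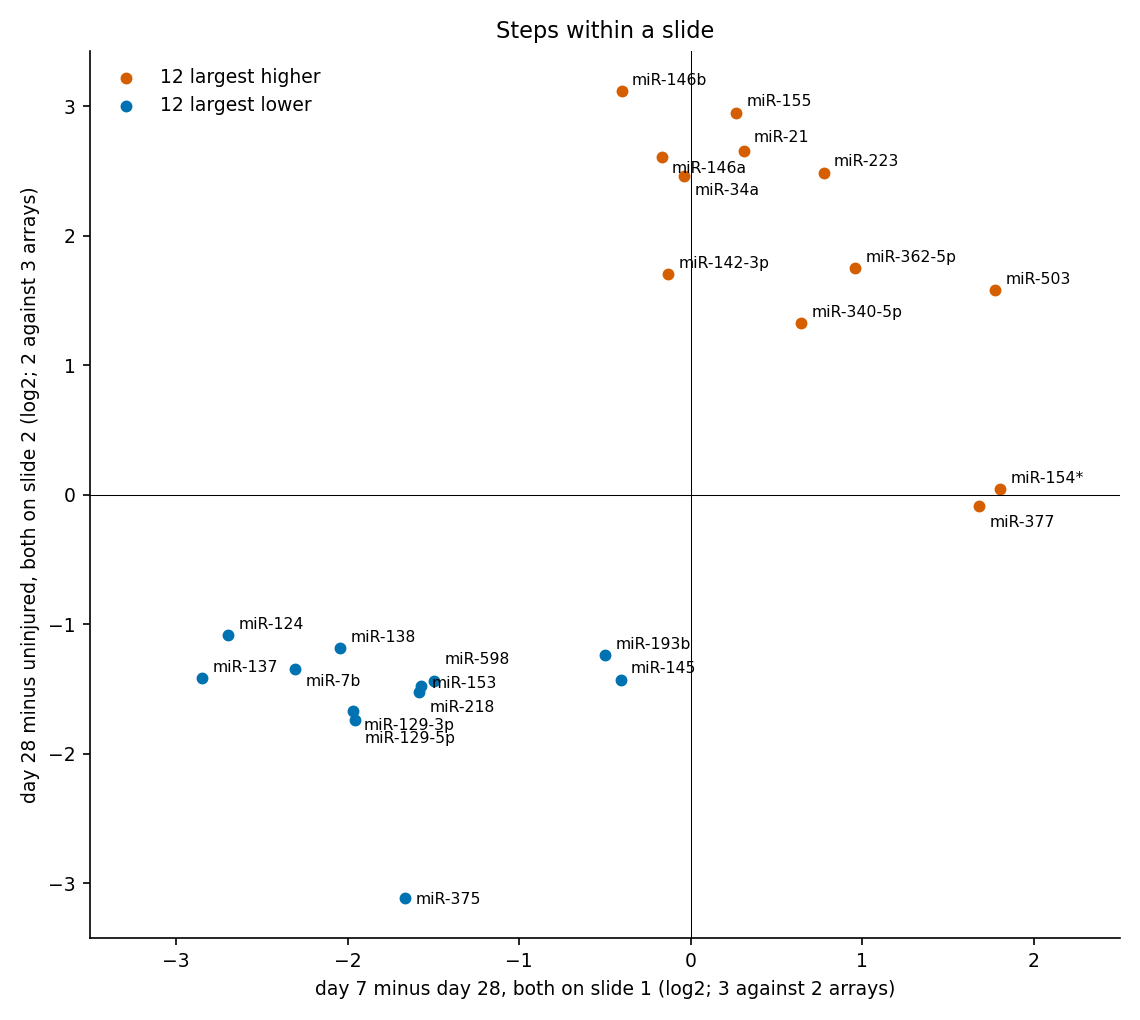
Step from day 28 to day 7 on slide 1 (horizontal, log2) and step from uninjured to day 28 on slide 2 (vertical, log2) of the 24 miRNAs with the largest rise or fall, whose sum is the difference with slide as a block. miR-146b (-0.40 and 3.12), miR-155 and miR-21 lie near 0 horizontally, miR-377 and miR-154* near 0 vertically, and the nerve miRNAs to the lower left.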

How the data were processed

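Per the labels, Cy3 was ligated to total RNA, which was read on Agilent mouse miRNA arrays of 1 colour (Sanger v12). Each deposited scanner file gives the processed signal of every spot as an intensity from Agilent Feature Extraction, per the file headers. The deposited value table, also an intensity, equals the total gene signal of those files within 0.1% for 100% of its values, so it carries no further scaling. Spots with an outlier mark were left out, the others averaged per probe, and each array divided by the 75th percentile of the 395 probes detected on all arrays. A floor of 0.0181 was set, log2 taken, and the brightest probe stood for a miRNA. Brighter arrays detect more dim miRNAs, and the floor shrinks the differences of dim ones. limma 3.58.1 (R 4.3.3) fitted 5 groups over 16 arrays, then with slide as a block, or with day 28 split by slide, with Benjamini-Hochberg adjustment over 321 miRNAs. The fits were tested on simulated data. With 3 against 3 arrays an exact two-sided test of a single value cannot go below 0.1, so none was run.

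The miRNAs and lists were chosen with earlier results of these data known, so list counts are descriptions. Named were, per direction, the 12 largest differences called in both fits with the arrays apart, miRNAs detected on 3 arrays of one group and 0 of the other, the 5 largest calls that ended with the block, the 5 narrowest intervals within log2 0.5 of 0, and list members (in lists over 10, the 4 with the smallest p). A fold is a bound ("at least") where the lower group was undetected on every array or at the floor on any. Where the lower group was undetected on only some arrays and off the floor, the plain fold is given. For miR-503, miR-362-5p and miR-154* the undetected values lay below the dimmest detected signal of their arrays (-5.07 and -5.22), so their folds may be too large. Alternatives covered scaling, background, filter, floor, outlier spots, probe choice, the value table, slide, replicate number, arrays in the fit, moderation, array weights, a minimum difference, and each array left out.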

Additional observations from a re-analysis of the deposited data

Results flagged for a closer look

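Several of the miRNAs with the largest differences at day 7 also differed between day 7 and day 28 on the same slide. Tested directly between day 7 and day 28 within slide 1 (3 against 2 arrays, limma with Benjamini-Hochberg adjustment), miR-223 was 0.77 higher at day 7, miR-503 1.77, miR-362-5p 0.96, miR-340-5p 0.64, miR-154* 1.80 and miR-377 1.68 on the log2 scale. Of these, miR-223, miR-503, miR-362-5p and miR-340-5p were also above uninjured at day 28 on slide 2, by 1.33 to 2.49. Those lower at day 7 than at day 28 were miR-129-5p (-1.96), miR-124 (-2.70), miR-137 (-2.85), miR-375 (-1.67), miR-7b (-2.30), miR-129-3p (-1.97), miR-138 (-2.04), miR-598 (-1.50) and miR-153 (-1.57). The difference of miR-375 rests mostly on day 28 replicate 2, with its day 7 arrays on the floor.

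On the 4 day 28 arrays miR-124 stood at -2.02, -2.13, -1.95 and -3.03, and its lowest value of -3.03 lay far from the other 3. Chance marks about 1 in 20 such groups.

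The arrays also carry probes for 39 viral miRNAs, which no comparison used. Of them, 7 were well above background on day 7 replicate 1, against 2 to 3 on the uninjured arrays and 3 on each of the other day 7 arrays. The arrays of days 1, 14 and 28 had 3 to 5. Day 7 replicate 1 was also the brightest of the day 7 and uninjured arrays, with a 75th percentile of 1214. The source of these signals was not tested.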

How the results depend on the processing

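The 160 calls became 92 with slide as a fixed block, and with it 91, 86, 68 and 68 without day 28 replicates 1 to 4 in turn, and 76 when only day 7, day 28 and uninjured arrays were fitted. Replicate numbers showed no pairing of day 7 with uninjured arrays (correlation of same-numbered arrays -0.14 to 0.038). Over all groups the 30 same-numbered pairs had correlations of -0.45 to 0.56, with a median of -0.062. With the replicate block there were 153 calls, and 45 with slide added. With a difference of at least 1 as well, 96 remained called. Within slide 1, the 81 calls between day 7 and day 28 became 0 without scaling, 53 in the value table, 49 with the replicate block, 48 with array weights and 42 with a difference of at least 1. Within slide 2, the 55 calls became 14, 21, 92 and 28 without scaling, with the replicate block, with array weights and with a difference of at least 1. The estimate of the array weights stopped before it converged, so the counts with them are uncertain. Between slides within day 28 limma called 0, and 2 without the filter or with a floor 2 times as high. Leaving out 1 array gave 138 to 166 calls for day 7, 39 to 100 within slide 1, 33 to 61 within slide 2 and 0 to 17 between slides (most without day 28 replicate 1). The causes were not tested.

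Of 92 miRNAs followed, 63 kept their call with the slide block and 57 without scaling. Without scaling these turned positive: miR-26a (0.46), miR-193 (0.19), miR-29a (0.17), miR-30e (0.28), miR-30e* (0.39), miR-24 (0.16), miR-27a (0.35), miR-27b (0.40), miR-23a (0.49), let-7b (0.13), let-7c (0.36), miR-195 (0.18), miR-497 (0.46) and miR-210 (0.12). miR-222 was -0.0030 with normexp, and let-7c 0.048 with quantile normalization. With the slide block, let-7b, let-7c and miR-497 were 0.074, 0.13 and 0.043 without day 28 replicate 2, and miR-497 0.033 without replicate 3.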

Other observations

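Outside the lists, the following miRNAs were called in both fits and are named after their values were seen. Both arms of miR-140, known from cartilage, fell, the named arm from 3.95, 3.81 and 3.05 to 2.52, 2.51 and 2.16 and miR-140* from 3.67, 3.44 and 2.49 to 1.74, 1.82 and 1.76 (adjusted p by limma = 0.000372 for each). The arrays were apart for both. miR-33, which lies in Srebf2, a gene of sterol control, and represses cholesterol export, stood at -4.18, -4.12 and -4.19 without injury and at -5.79, -5.67 and -5.41 at day 7, at least 2.75-fold lower (adjusted p by limma = 0.000309). miR-331-3p was 2.49-fold lower. Of those that rose, miR-350 went from -1.35, -1.53 and -1.32 to -0.39, -0.23 and -0.39 and miR-148a from -0.010, -0.43 and -0.23 to 0.37, 0.59 and 0.62. miR-135a*, detected on 1 of 3 uninjured arrays, and miR-675-3p, made from the imprinted H19 transcript and detected on 1, were at least 2.52-fold and 1.85-fold higher.

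Some arrays carried values that the rest of their group did not share. On uninjured replicate 3, 34 tested miRNAs lay more than log2 1 above both other uninjured arrays and 6 as far below them. On day 7 replicate 1 this held for 18 miRNAs above and 5 below, led by miR-466h, which lay 3.18 above the next array, miR-16* (2.72) and miR-669e (2.63). On day 28 replicate 2, miR-200b and miR-141, miRNAs of epithelia, stood at -1.35 and -1.51, against -5.51 and -5.60 or lower on the other day 28 arrays.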
